A study of Drosophila melanogaster with 4 samples.

Results

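The subunits of RNA polymerases I, II and III, the general transcription factors and the Mediator complex were followed in sorted intestinal stem cells of adult Drosophila melanogaster. Their genes were taken by name: RpI, RpII or RpIII followed by a digit, Taf followed by a digit, MED followed by a digit, and TfII. This gave 56 of the 15495 rows of the table. They comprise 3 genes of polymerase I, 5 of polymerase II, 1 of polymerase III, 22 of TFIID and other general factors, and 25 of Mediator. RNA interference had run for 7 days at 29 °C against Piwi, an Argonaute protein of the piRNA pathway, or against mCherry, a foreign fluorescent protein, as the control. Each group has 2 libraries, and each library came from the sorted cells of 100 pooled guts. The source label of the mCherry RNAi libraries names yw and that of the Piwi RNAi libraries names PiwiRNAi. The sources used here give neither the driver of the RNAi nor the age and sex of the flies. Nothing in the comparison therefore separates the RNAi target from the genetic background.

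The nuclear RNA polymerases divide the work of transcription. Polymerase I makes the large ribosomal RNA, polymerase II makes messenger RNA, and polymerase III makes transfer RNA and a small ribosomal RNA. Several small subunits are shared among them. Polymerase II starts at promoters that TFIID, a complex of the TATA-binding protein and its associated factors (TAFs), has recognised, together with TFIIA, TFIIB, TFIIE, TFIIF and TFIIH. Mediator, a complex of head, middle and tail modules with a separable kinase module, links activators to this assembly.

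Values are FPKM, in which fragment numbers are divided by transcript length and by library depth, so levels can be set beside each other across genes. FPKM sums per library were 900475 to 1050749, at an estimated depth of 1630000 to 2310000 fragments. The targeted gene, piwi, had 0.495 and 1.94 FPKM with mCherry RNAi and 0.208 and 0.442 FPKM with Piwi RNAi, too low to be tested. All 9 progenitor markers, esg and Dl among them, were above 0 in every library and summed to 600 to 919 FPKM. The libraries differed in RNA of other gut cells. The 18 enterocyte markers summed to 21040 FPKM in mCherry RNAi replicate 1, against 1626 FPKM in replicate 2 and 1015 to 2039 FPKM with Piwi RNAi. The 12 enteroendocrine markers summed to 2843 and 5610 FPKM with mCherry RNAi and to 272 and 485 FPKM with Piwi RNAi. The 15 visceral muscle markers summed to 300 to 333 FPKM, and hemocyte, fat body and germline markers to 24.1 FPKM or less per library. The part of these differences in the results that follow was not tested. Where leaving out mCherry RNAi replicate 1 moved the difference of a described gene or the median of a list by over 1.5 times, the value without it is given. In such bulk RNA, fewer cells of a type and less RNA per cell cannot be told apart.

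Of the 56 genes, 53 reached a mean level of 1 FPKM and were tested. The remaining 3, TfIIA-S-2, Taf12L and MED21, were listed at 0 in all 4 libraries. TfIIA-S-2 and Taf12L are paralogs of TfIIA-S and Taf12. MED21 overlaps Set1, a gene also listed at 0 throughout, so its 0 was read only as a listed value. Means over the 4 libraries ran from 4.72 FPKM for MED27 to 146 FPKM for TfIIA-S, with a median of 19.3 FPKM. For the 32 tested genes with a single annotated transcript the values correspond to an estimated 4 to 479 fragments per library, with a median of 38.5, and 12 of them fell under 20 fragments in a library.

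Nearly the whole set had higher values after Piwi RNAi, but no gene passed the test. On the log2(FPKM + 1) scale the difference (Piwi RNAi less mCherry RNAi) was positive for 52 of 53 genes, for 45 after quantile normalization and for 42 after median-of-ratios scaling. Among all 8313 tested genes, 70.0% had a positive difference. By limma with Benjamini-Hochberg adjustment over all tested genes, 0 of the 53 had an adjusted p under 0.05, where 1.18% of all tested genes did. The smallest limma adjusted p was 0.0867, for MED7. At an unadjusted p under 0.05, 20 of the 53 were higher, or 37.7%, and 0 were lower, against 21.7% and 4.85% of all tested genes. With 2 libraries per group the smallest 2-sided exact permutation p for a single gene is 0.333, so that kind of test cannot reach the threshold.

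The median log2 difference of the 53 genes was 0.74, against 0.37 for all tested genes. Median-of-ratios scaling moved these medians to 0.37 and −0.01, so the set lay 0.37 above the median gene before it and 0.38 after it. In 42 genes both Piwi RNAi libraries lay above both mCherry RNAi libraries, and in 1, MED31, both lay below. These are 79.2% and 1.89% of the 53, against 51.5% and 13.0% of all tested genes.

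The size of this shift depended on the scaling and on the control libraries. With median-of-ratios scaling 27 genes were higher without overlap and 2 lower, against 26.9% and 26.5% of all tested genes, and 42 differences were positive, against 49.4%. At an unadjusted p under 0.05, 5 genes were then higher and 1 lower, against 7.16% and 10.6% of all tested genes. With quantile normalization 25 were higher without overlap and 2 lower, against 32.7% and 19.8%, and 45 were positive, against 57.6%. The unadjusted test then gave 5 higher and 1 lower, against 8.89% and 6.53%. Without mCherry RNAi replicate 1 the median was 0.42, against 0.27 for all tested genes, so the distance from the median gene shrank from 0.37 to 0.14. The difference of 28 of the 53 genes moved by over 1.5 times. That count was not made over all tested genes, so it is not read as particular to the set. In that comparison 43 genes were higher without overlap, against 58.6% of all tested genes, and 11 were higher at an unadjusted p under 0.05, against 13.5%. A block for the replicate number left 0 of the 53 past the adjusted threshold, against 2.33% of all tested genes, with 20 higher and 1 lower at an unadjusted p, against 20.9% and 6.82%. Counts per complex and per list in what follows are on the deposited scale unless another scaling is named.

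**Figure D1:**
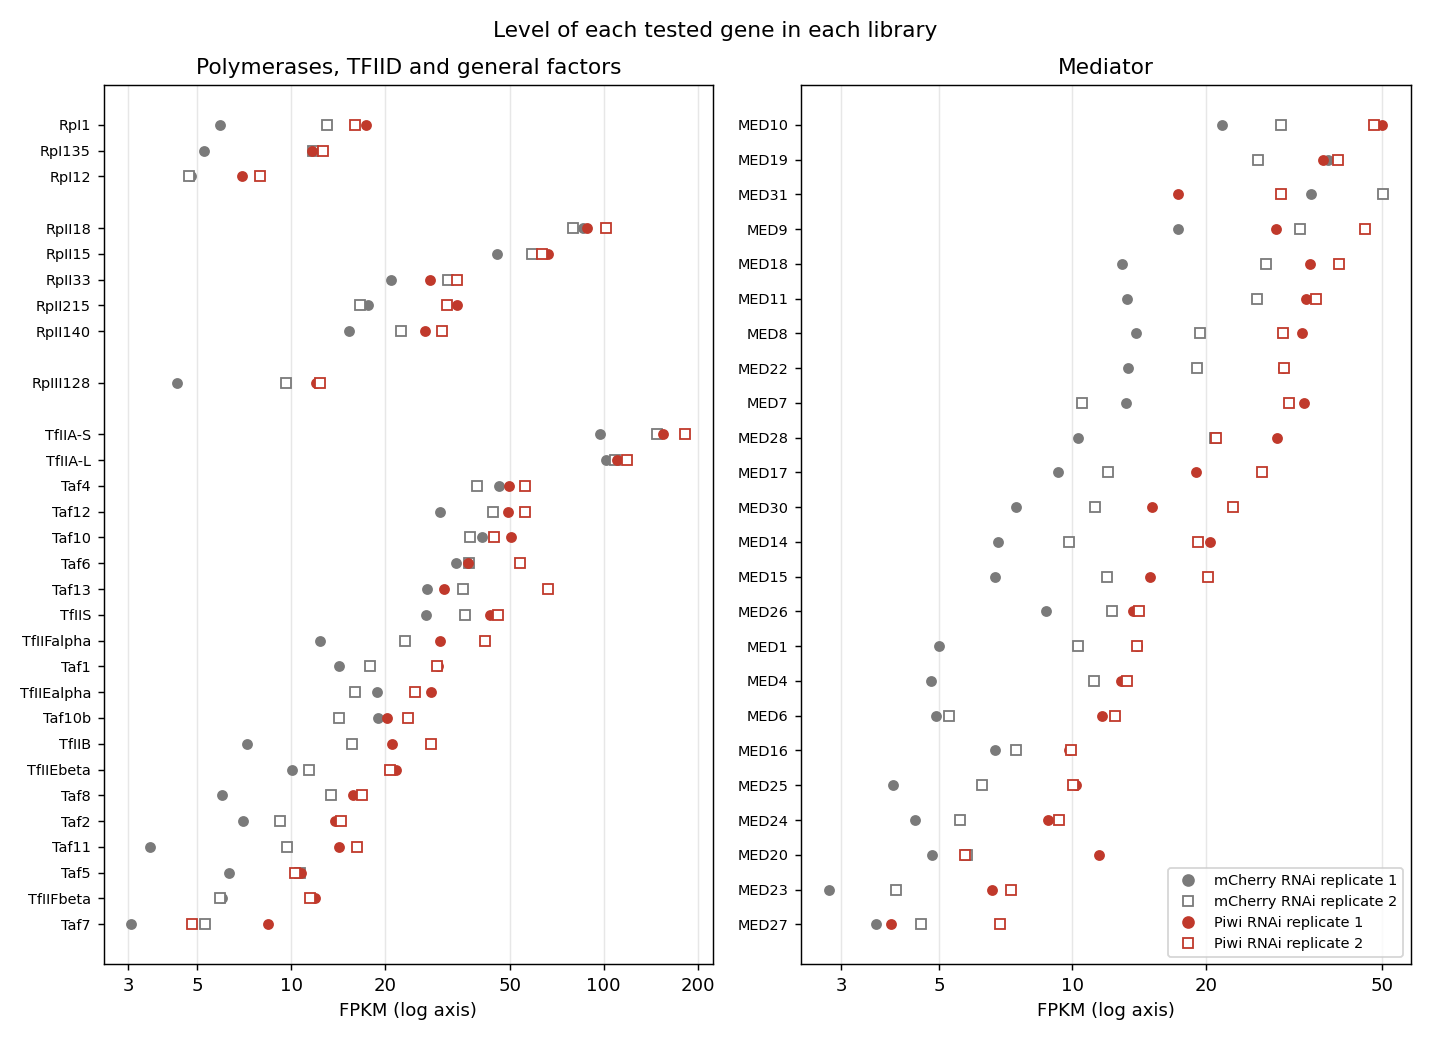
FPKM of the 53 tested genes in each of the 4 libraries on a log axis, by complex and in order of mean level. In 42 genes both red Piwi RNAi symbols lie to the right of both grey mCherry RNAi symbols; MED31 is the gene with both Piwi RNAi values to the left.

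The polymerase I genes were at low levels. RpI1, which encodes the largest, catalytic subunit, had 5.89 and 13.0 FPKM with mCherry RNAi and 17.4 and 16.1 FPKM with Piwi RNAi. Both Piwi RNAi values were higher, but the mCherry RNAi libraries lay far apart (1.02 on the log2 scale), and the log2 difference of 0.85 ± 0.40 (SE) had a limma adjusted p of 0.232. Without mCherry RNAi replicate 1 it was 0.34. RpI135, the second largest subunit, had 5.25 and 11.7 FPKM with mCherry RNAi and 11.7 and 12.7 FPKM with Piwi RNAi. Its groups overlapped, with replicate 1 of mCherry RNAi alone at a lower level (difference 0.56 ± 0.40, and 0.050 without that library). RpI12, a small subunit known in yeast to take part in RNA cleavage and termination, had 4.79 and 4.71 FPKM against 6.93 and 7.92 FPKM. These correspond to only about 4 and 4 against 5 and 7 fragments. The ratio per depth had a counting interval of 0.594 to 4.46, so the difference of 0.55 ± 0.27 was not detectable at this depth.

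Among the polymerase II genes taken by name RpII215 had the largest difference. RpII215, the largest subunit, which carries the active site and the repeated carboxy-terminal domain, had 17.6 and 16.7 FPKM with mCherry RNAi and 33.9 and 31.4 FPKM with Piwi RNAi. The replicates of each group lay close together and the groups were well apart, at 1.91-fold by group means. The log2 difference was 0.89 ± 0.20 (SE; 95% interval 0.36 to 1.42), with a limma adjusted p of 0.133, and it was 0.84 to 0.95 over the fits that left out a library. The single-transcript gene had an estimated 470 fragments in mCherry RNAi and 844 in Piwi RNAi, a ratio per depth of 1.89 (95% interval 1.69 to 2.12 by the Clopper-Pearson method, for counting error only). After median-of-ratios scaling the difference was 0.50.

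RpII140, the second largest subunit, had 15.3 and 22.5 FPKM against 26.7 and 30.3 FPKM, without overlap (difference 0.59 ± 0.27; limma adjusted p = 0.225), and without mCherry RNAi replicate 1 its difference was 0.33. RpII18, a small subunit common to all 3 polymerases, had 86.1 and 80.0 FPKM against 88.1 and 102 FPKM, and its difference of 0.19 ± 0.17 was −0.22 after median-of-ratios scaling. RpII15, the subunit known in yeast for transcription fidelity, had 45.7 and 59.1 FPKM against 66.4 and 63.5 FPKM. Its difference of 0.32 was −0.09 after the same scaling and 0.13 without mCherry RNAi replicate 1. RpII33, an assembly subunit, had 20.8 and 31.8 FPKM against 27.8 and 34.0 FPKM with overlapping groups, and its difference of 0.25 was −0.15 with the scaling and −0.05 without that library. The 5 genes had a median difference of 0.32, which is 0.05 under that of all tested genes, and −0.09 with median-of-ratios scaling. Whether RpII215 differed from the small subunits in its response was not tested.

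RpIII128, the second largest subunit of polymerase III, was the 1 gene of that enzyme taken by name. It had 4.32 and 9.62 FPKM with mCherry RNAi and 12.0 and 12.3 FPKM with Piwi RNAi. The groups did not overlap, and mCherry RNAi replicate 1 was again the lowest library (difference 0.81 ± 0.40; limma adjusted p = 0.245). Without that library the difference was 0.31.

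The remaining polymerase subunits carry other names in the table. A list of 20 of them had a median difference of 0.74, or 0.47 without mCherry RNAi replicate 1 and 0.36 with median-of-ratios scaling. Of the 20, 15 were higher without overlap, against 51.5% of all tested genes, and 9 were higher at an unadjusted p under 0.05, against 21.7%, and by limma 0 passed at an adjusted p. The lowest difference was −0.27, for the polymerase II stalk subunit Rpb7, whose mCherry RNAi values of 15.1 and 32.1 FPKM spanned the 17.0 and 19.4 FPKM of Piwi RNAi (−0.79 without mCherry RNAi replicate 1). The highest was 1.99 ± 0.71, for CG33051, currently named Polr3G, with 2.47 and 13.8 FPKM against 30.2 and 24.9 FPKM (limma adjusted p = 0.175), and it was 0.95 without mCherry RNAi replicate 1. The values of CG33051 correspond to an estimated 3 and 17 fragments with mCherry RNAi and 29 and 34 with Piwi RNAi. Rpb8, shared by the 3 polymerases, had 21.6 and 25.4 FPKM against 51.3 and 56.7 FPKM, the smallest limma adjusted p of the list at 0.0965; it was singled out after its values were seen. Taking both sets of names together by their current symbols, the median difference was 0.55 over 7 polymerase I genes, 0.59 over 13 polymerase II genes and 0.85 over 9 polymerase III genes. These were 0.33, 0.24 and 0.83 without mCherry RNAi replicate 1, and 0.20, 0.20 and 0.47 with median-of-ratios scaling. All 9 genes with polymerase III symbols were higher without overlap, against 51.5% of all tested genes. With polymerase I symbols 4 of 7 were, and with polymerase II symbols 9 of 13. Each gene was counted once by its symbol, so a subunit shared between enzymes entered a single group. The 5 subunits shared by all 3 enzymes are counted here with polymerase II and had a median of 0.42 (0.02 with that scaling).

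**Figure D2:**
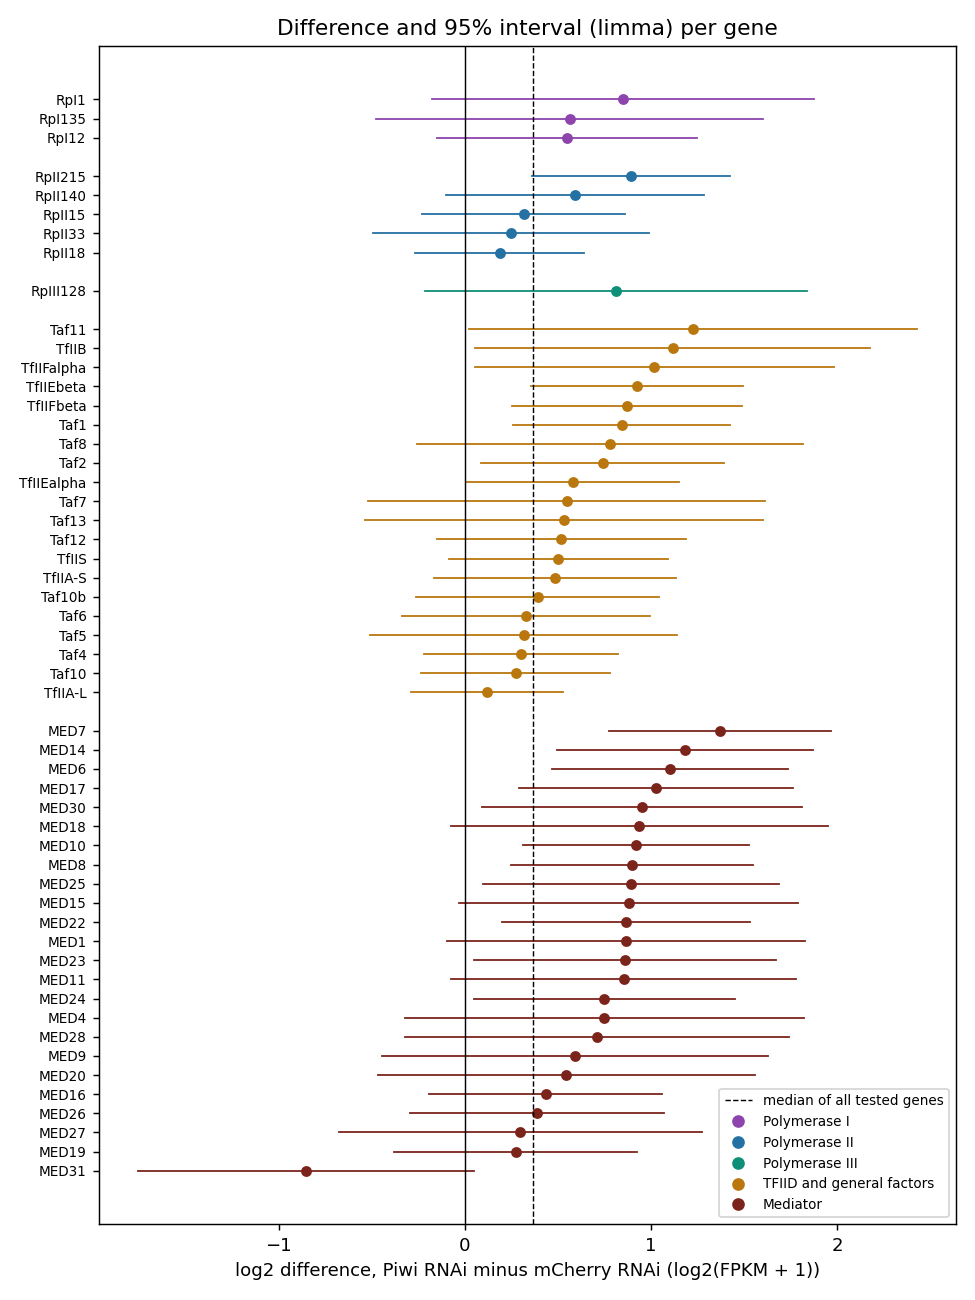
Log2 difference, Piwi RNAi minus mCherry RNAi, with its 95% interval from limma for each tested gene, by complex; the solid line is at 0 and the dashed line at 0.37, the median of all tested genes. The intervals of 20 genes lie above 0, led by MED7 at 1.37, and MED31 is the gene with a negative difference.

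The general factors that join polymerase II at the promoter were led in level by TFIIA, which stabilises TFIID on DNA. TfIIA-S had 97.3 and 148 FPKM with mCherry RNAi and 155 and 183 FPKM with Piwi RNAi, and TfIIA-L had 102 and 109 FPKM against 111 and 118 FPKM. TfIIA-S and TfIIA-L were the 2 highest genes of the whole set in mean level. TfIIA-L had the smallest positive difference of the set, 0.12 ± 0.16, which was −0.28 after median-of-ratios scaling. Without mCherry RNAi replicate 1 the differences were 0.18 for TfIIA-S and 0.073 for TfIIA-L.

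TfIIB, which bridges polymerase II and the TATA-binding protein, had 7.19 and 15.6 FPKM with mCherry RNAi and 21.1 and 28.0 FPKM with Piwi RNAi. All 4 values were spread out, and the difference of 1.12 ± 0.41 had a limma adjusted p of 0.178. It was 0.61 without mCherry RNAi replicate 1. Part of this gene overlaps CG5337 on the other strand, at 0.350 to 3.54 FPKM.

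TFIIE, which brings in the helicase factor TFIIH, is made of TfIIEalpha and TfIIEbeta. TfIIEbeta had 10.02 and 11.4 FPKM against 21.7 and 20.7 FPKM, with tight groups far apart (difference 0.92 ± 0.22; limma adjusted p = 0.135). TfIIEalpha had 18.8 and 16.0 FPKM against 27.9 and 24.9 FPKM (difference 0.58 ± 0.22). TFIIF, which travels with the polymerase, is made of TfIIFalpha and TfIIFbeta. TfIIFbeta had 6.003 and 5.90 FPKM against 11.9 and 11.5 FPKM, again with tight groups (difference 0.87 ± 0.24). TfIIFalpha had 12.3 and 23.2 FPKM against 29.8 and 41.8 FPKM, more widely spread (difference 1.02 ± 0.37; limma adjusted p = 0.178), and without mCherry RNAi replicate 1 its difference was 0.59.

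TfIIS, an elongation factor that lets a stalled polymerase cut its RNA and resume, had 27.1 and 36.0 FPKM against 43.4 and 45.9 FPKM (difference 0.50 ± 0.23; limma adjusted p = 0.225; 0.30 without mCherry RNAi replicate 1). All 8 tested general factors outside TFIID were higher without overlap, against 51.5% of all tested genes. At an unadjusted p under 0.05, 5 were higher, against 21.7%, with a median of 0.72 (0.35 with median-of-ratios scaling).

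The 12 tested TAF genes had a median difference of 0.52, or 0.34 without mCherry RNAi replicate 1 and 0.13 with median-of-ratios scaling. Of them 8, or 66.7%, were higher without overlap, against 51.5% of all tested genes. At an unadjusted p under 0.05, 3 were higher, or 25.0%, close to the 21.7% of all tested genes. Taf1, the largest TAF and the scaffold that holds the TATA-binding protein, had 14.2 and 17.9 FPKM with mCherry RNAi and 29.6 and 29.2 FPKM with Piwi RNAi. The Piwi RNAi libraries nearly coincided above both controls (1.83-fold by group means; difference 0.84 ± 0.22; limma adjusted p = 0.144). Taf2, which contacts DNA around the start site, had 7.02 and 9.19 FPKM against 13.8 and 14.4 FPKM (difference 0.74 ± 0.25). Taf11 had the highest difference of the group, 1.22 ± 0.46, from 3.52 and 9.68 FPKM to 14.2 and 16.3 FPKM. It was 0.60 without mCherry RNAi replicate 1, and rests on an estimated 18 fragments in mCherry RNAi and 39 in Piwi RNAi. Its partner in a histone-fold pair, Taf13, had overlapping groups at 27.2 and 35.4 FPKM against 30.8 and 66.6 FPKM (difference 0.53, and 0.35 without that library).

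Taf5, a WD40-repeat protein of the TFIID core, had 6.30 and 10.7 FPKM against 10.7 and 10.3 FPKM. Only mCherry RNAi replicate 1 was apart, and its difference of 0.32 became −0.02 without that library and −0.05 after median-of-ratios scaling. Taf4 and Taf12 had the highest mean levels among the TAF genes, and their differences were not tested against each other. Taf4 had 46.1 and 39.2 FPKM against 49.6 and 55.9 FPKM (difference 0.30 ± 0.20). It was 0.42 without mCherry RNAi replicate 1 and −0.10 after median-of-ratios scaling. Taf12 had a difference of 0.52, or 0.25 without mCherry RNAi replicate 1. Taf10 had 40.9 and 37.4 FPKM against 50.6 and 44.6 FPKM, and its difference of 0.27 ± 0.20 was −0.13 after median-of-ratios scaling. Its paralog Taf10b was lower in level, at 19.0 and 14.2 FPKM against 20.2 and 23.7 FPKM, with a difference of 0.39 ± 0.25, or 0.59 without mCherry RNAi replicate 1. Taf6 and Taf7 had overlapping groups. Their differences were 0.33 for Taf6, which was −0.07 after median-of-ratios scaling, and 0.55 for Taf7, which was 0.23 without mCherry RNAi replicate 1. Taf8 had 0.78 without overlap, and 0.26 without that library.

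Mediator genes had a median difference of 0.86 over 24 tested genes. Of these, 19 were higher without overlap, against 51.5% of all tested genes, and 11 were higher at an unadjusted p under 0.05, against 21.7%. By limma, 0 of the 24 passed at an adjusted p, against 1.18%. Their median was 0.51 without mCherry RNAi replicate 1 and 0.49 after median-of-ratios scaling. The counts are on the deposited scale. After median-of-ratios scaling, 5 of the whole set of 53 genes were higher at an unadjusted p under 0.05, against 7.16% of all tested genes. By modules as known from yeast and mammalian structures, the median was 0.90 for 7 head genes, 0.67 for 8 middle genes and 0.80 for 8 tail genes, and with median-of-ratios scaling 0.51, 0.29 and 0.45. Without mCherry RNAi replicate 1 they were 0.62, 0.31 and 0.56. The grouping was drawn up after the values were seen, and differences between modules were not tested.

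MED7, a subunit of the middle module, had 13.2 and 10.5 FPKM with mCherry RNAi and 33.4 and 30.8 FPKM with Piwi RNAi. The groups were tight and well apart, at 2.71-fold by group means. Its log2 difference of 1.37 ± 0.23 (95% interval 0.78 to 1.97) was the highest of the set (limma adjusted p = 0.0867). The estimated fragments were 38 in mCherry RNAi and 97 in Piwi RNAi, a ratio per depth of 2.69 with a 95% interval of 1.83 to 4.02 for counting error only. MED7 passed with a filter at 5 FPKM (limma adjusted p = 0.0494), where 2.6% of all tested genes did, and with robust variance estimates (limma adjusted p = 0.0447), where 2.51% did. At a threshold of 0.1 it was the 1 member called, against 3.04% of all tested genes. Over the alternatives its limma adjusted p ran from 0.0447 to 0.547. Its difference was 0.98 after median-of-ratios scaling and 1.22 to 1.52 with a library left out.

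MED14, the backbone that connects the modules, had 6.80 and 9.81 FPKM against 20.4 and 19.3 FPKM, clearly apart at 2.39-fold (difference 1.18 ± 0.27; limma adjusted p = 0.132). MED6, a head subunit, had 4.91 and 5.26 FPKM against 11.7 and 12.5 FPKM, with both groups tight (difference 1.10 ± 0.24; limma adjusted p = 0.132). MED6 lies across CG8481, a gene on the other strand at 14.0 to 17.8 FPKM, so its reads may not all be its own. MED17, the central subunit of the head, had 9.25 and 12.0 FPKM against 19.0 and 26.8 FPKM (difference 1.03 ± 0.28; limma adjusted p = 0.147). The other head genes, MED8, MED11, MED18, MED20 and MED22, had differences of 0.55 to 0.94, and the groups of MED20 overlapped. MED11 had 0.39 and MED18 0.42 without mCherry RNAi replicate 1.

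MED1, the middle subunit known in mammals for binding nuclear receptors, had 4.99 and 10.3 FPKM with mCherry RNAi and 14.0 FPKM in both Piwi RNAi libraries (difference 0.87 ± 0.37; limma adjusted p = 0.211). MED15, a tail subunit bound by activators, had 6.69 and 12.0 FPKM against 14.9 and 20.2 FPKM (difference 0.88 ± 0.35; limma adjusted p = 0.195). In both genes mCherry RNAi replicate 1 was far below replicate 2, and without it the differences were 0.41 for MED1 and 0.50 for MED15. MED24 shares a stretch with Ubc12 on the other strand, at 26.7 and 37.3 FPKM against 51.7 and 48.7 FPKM. The tail genes MED23, MED24, MED25 and MED30 had differences of 0.75 to 0.95, each at an unadjusted p under 0.05. MED16, MED27 and MED28 had 0.43, 0.30 and 0.71, and the groups of MED27 overlapped at an estimated 6 to 15 fragments per library. The difference of MED27 was −0.03 after median-of-ratios scaling and 0.16 without mCherry RNAi replicate 1, where MED28 had 0.23. Of the middle genes, MED10 had 0.92, MED4 0.75, MED9 0.59 (groups overlapping) and MED26 0.39. These were 0.21 for MED4, 0.15 for MED9 and 0.17 for MED26 without mCherry RNAi replicate 1. MED19 had 37.7 and 26.2 FPKM against 36.8 and 39.7 FPKM with overlapping groups, and its difference of 0.27 was −0.12 after median-of-ratios scaling and 0.53 without mCherry RNAi replicate 1.

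MED31, a small conserved subunit that in yeast binds the amino-terminal part of MED7, was the gene with lower values after Piwi RNAi. It had 34.7 and 50.2 FPKM with mCherry RNAi and 17.3 and 29.5 FPKM with Piwi RNAi. The groups did not overlap, but the spread within each was wide, and the log2 difference of −0.85 ± 0.35 had a limma adjusted p of 0.199. Leaving out single libraries gave −1.22 to −0.48, and the groups overlapped after an adjustment for transcript length. In the reference annotation MED31 lies wholly inside slx1 on the same strand, a gene at 1.46 and 2.86 FPKM against 3.07 and 4.33 FPKM, so reads of these genes cannot be fully told apart and its level is uncertain. MED9 likewise lies inside CG42518 on the same strand, a gene at 22.0 and 5.62 FPKM against 16.0 and 11.3 FPKM. MED9 itself had 17.3 and 32.7 FPKM against 28.9 and 45.9 FPKM, so its level is uncertain too. In all, 24 of the 56 genes overlap a gene on the other strand, and the sources used here do not give the strand setting of the counting.

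**Figure D3:**
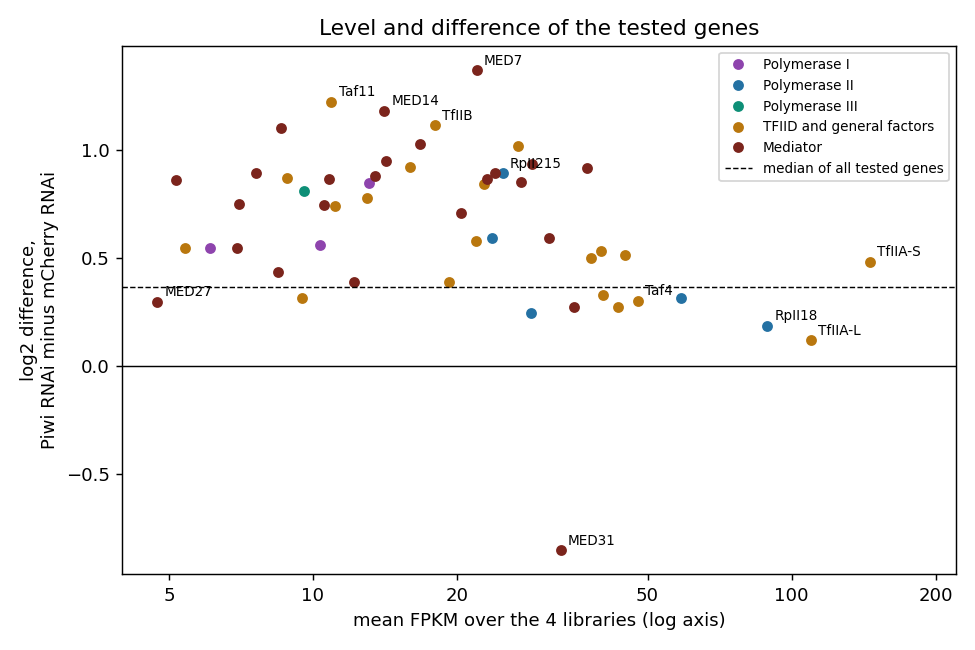
Log2 difference, Piwi RNAi minus mCherry RNAi, against mean FPKM over the 4 libraries on a log axis for the 53 tested genes, coloured by complex. The most abundant genes, TfIIA-S, TfIIA-L and RpII18, lie near or under the dashed line of all tested genes at 0.37, and MED31 lies apart at −0.85.

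Within the set, genes at higher levels had smaller differences. Spearman's rho between mean log2 level and difference was −0.33 across the 53 genes, which share the same 4 libraries, and it was 0.10 across all 8313 tested genes. The 26 genes at or above a mean of 20 FPKM had a median difference of 0.56, against 0.81 for the 27 below. For all tested genes these medians were 0.35 and 0.38. Transcript length had a rho of 0.17 with the difference in the set and 0.19 in all tested genes with a known length.

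The control libraries differed from each other in most of the genes. In 43 of 53 genes mCherry RNAi replicate 2 was above replicate 1, which are 81.1% against 63.7% of all tested genes, with a median log2 difference of 0.45 between the 2 libraries (0.18 for all tested genes). For 20 of the 53 genes this difference within the control group was larger than the difference between the groups. No such count over all tested genes is given here, so this one is not read as particular to the set. The Piwi RNAi libraries differed by a median of 0.08. Relative to each gene's mean, the 53 genes had a median of −0.55 for mCherry RNAi replicate 1, −0.08 for replicate 2, and 0.34 and 0.40 for Piwi RNAi. The low library, mCherry RNAi replicate 1, is also the one with 21040 FPKM of enterocyte markers.

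**Figure D4:**
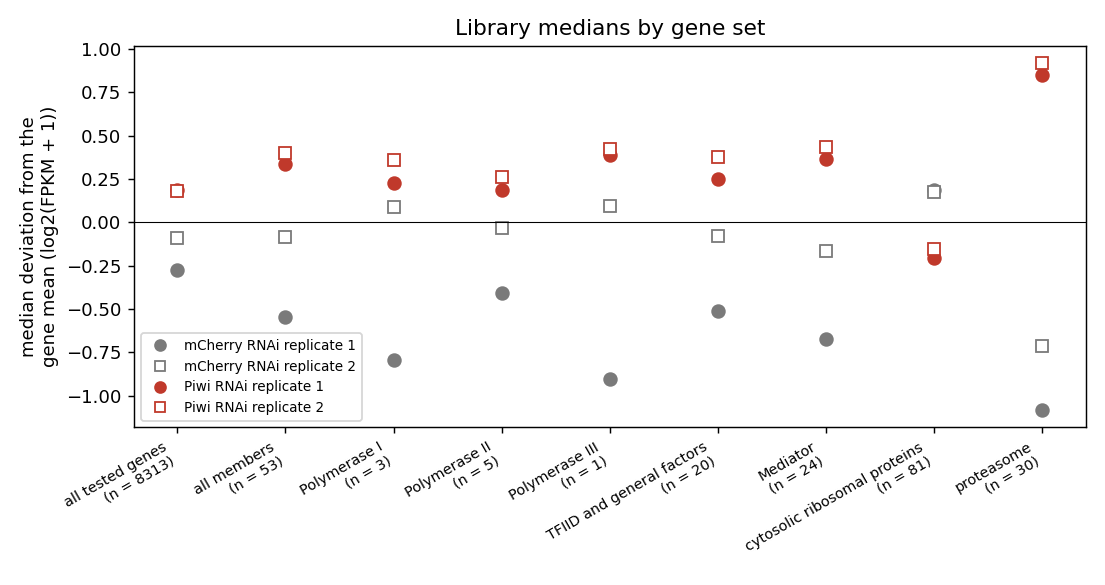
Median deviation from each gene's mean over the 4 libraries, on the log2(FPKM + 1) scale, by gene set, with 1 symbol per library. For the 53 genes mCherry RNAi replicate 1 lies at −0.55 and replicate 2 at −0.08, with both Piwi RNAi libraries above them; ribosomal protein genes have the opposite order of groups.

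Beside these, the proteasome and the ribosomal protein genes show the range within the same libraries. Of 30 tested proteasome genes (symbols starting with Prosalpha, Prosbeta, Rpn, Rpt, or Pros and a digit), 23 rose at a limma adjusted p under 0.05. Among all 8313 tested genes 51 did. The proteasome genes had a median log2 difference of 1.76 (1.36 with median-of-ratios scaling). Of 81 tested cytosolic ribosomal protein genes, 29 fell by the same test, where 47 of all tested genes did. Their median was −0.36 (−0.77 with that scaling). These calls belong to the deposited scale. With median-of-ratios scaling, 1 gene of the whole table rose and 7 fell at the same threshold. The transcription genes lay between them, and the difference between the sets was not tested.

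The rest of the transcription machinery was read from lists drawn up by function. The medians and counts that follow are on the deposited scale, and after median-of-ratios scaling the medians ran from 0.21 to 0.44 in the lists other than the subunits under other names, given last. Beside the counts, 51.5% of all tested genes were higher without overlap and 21.7% were higher at an unadjusted p under 0.05. TFIIH, the factor that opens the promoter and phosphorylates polymerase II, had a median of 0.64 over 10 genes, or 0.33 without mCherry RNAi replicate 1. Of these, 7 (70.0%) were higher without overlap and 2 at an unadjusted p under 0.05, the latter a share just under that of all tested genes, and by limma 0 passed at an adjusted p. Its kinase Cdk7 had the highest value, 5.71 and 10.9 FPKM against 19.3 and 18.3 FPKM (difference 1.15 ± 0.34; limma adjusted p = 0.154), and 0.74 without mCherry RNAi replicate 1. Its subunit Tfb4 had the lowest, 15.6 and 23.0 FPKM against 15.5 and 15.4 FPKM (−0.28 ± 0.27, and −0.55 without that library), just without overlap. The 3 genes of the TATA-binding protein family were all higher without overlap, where 51.5% of all tested genes were. Their differences ran from 0.28 for Trf2, which was −0.10 after median-of-ratios scaling, to 0.96 for Trf, and Tbp itself had 9.71 and 13.0 FPKM against 21.6 and 19.7 FPKM. The 4 genes of the Mediator kinase module, which can hold Mediator off the polymerase, were also all higher without overlap, against the same 51.5%, from 0.46 for skd to 0.90 for Cdk8.

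Pausing and elongation factors had a median of 0.79 over 21 genes, with 19 (90.5%) higher without overlap and 14 (66.7%) higher at an unadjusted p under 0.05, against 51.5% and 21.7% of all tested genes. By limma 0 passed at an adjusted p, against 1.18%. Ssrp, a subunit of the histone chaperone FACT, had the highest value, 18.6 and 27.9 FPKM against 55.9 and 50.6 FPKM (difference 1.19 ± 0.26; limma adjusted p = 0.132), and Elongin-C the lowest, −0.14 (−0.27 without mCherry RNAi replicate 1). The 14 genes of Integrator, which cleaves nascent RNA, had a median of 0.81, from 0.10 for IntS3 to 1.48 for IntS12, with 13 (92.9%) higher without overlap, against 51.5% of all tested genes. Without mCherry RNAi replicate 1 the Integrator median was 0.49 and IntS3 had −0.09, and after median-of-ratios scaling IntS3 had −0.28. The 15 SAGA genes, a coactivator that shares TAFs with TFIID, had a median of 0.78, with 12 (80.0%) higher without overlap, against 51.5% of all tested genes. Of these, CG6506, currently named Spt7, had 1.70 ± 0.39, from 3.36 and 7.42 to 20.2 and 17.2 FPKM, and the deubiquitinase gene not had −0.35 (−0.20 without mCherry RNAi replicate 1).

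The 6 initiation factors of polymerases I and III had a median of 0.60, or 0.39 without mCherry RNAi replicate 1. They ran from 0.13 for CG18316 (udd), −0.25 after median-of-ratios scaling, to 1.00 for CG10496 (TAF1C-like), 0.52 without that library. Of the 4 testis TAF genes in the table, which replace TFIID subunits in spermatocytes, mia alone was tested, at 1.29 to 3.87 FPKM with overlapping groups and a difference of 0.49. The genes nht, can and sa were at 1.17 FPKM or less in every library. TAF and Mediator subunits under other names were added after their values were seen. Of these, e(y)1 (Taf9) had a difference of 0.73, bip2 (Taf3) 0.35 and ix, the MED29 of flies, 0.13 with overlapping groups, and their median of 0.35 was −0.03 after median-of-ratios scaling and 0.59 without mCherry RNAi replicate 1. Without that library bip2 had 0.18 and ix 0.59, and after the scaling bip2 had −0.03 and ix −0.26. By limma, 0 genes of any of these lists passed at an adjusted p under 0.05.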

How the data were processed

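RNA of sorted intestinal stem cells had been extracted with Trizol and made into TruSeq RNA libraries, per the labels' protocols. The authors deposited 1 table of FPKM values with a column per library. Per the submitters' processing notes, TopHat and Cufflinks were used. The sources used here do not give software versions, genome build, gene annotation, strandedness or between-library scaling. FPKM values are not counts. Depth was estimated per library from the regular steps between low values, using single-transcript genes of 800 nt or more, with an effective length 130 nt under the transcript. Between 85.2% and 87.7% of low values then lay within 0.1 of a whole number, against 20% by chance. Transcript lengths, overlaps and current symbols came from Ensembl, FlyBase and RefSeq tables of a later annotation, which matched all 56 genes. Lengths and overlaps were computed from the coordinates of that annotation. No coordinates or sequences are shown.

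The test was limma-trend (limma 3.58.1, R 4.3.3) on log2(FPKM + 1), 2-sided, over 8313 genes (mean level 1 FPKM or higher), with Benjamini-Hochberg adjustment over all of them and a threshold of 0.05. It had 2 residual and 2.86 prior degrees of freedom, and was tested on simulated data. Errors beside differences are standard errors. Spread among libraries, each a separate pool, is what the p-values measure. Fragment intervals cover counting error only. The members and lists were chosen with earlier results of these data known. Named genes were, per complex, the 3 highest and 2 lowest differences, any gene lower without overlap, and a fixed set of 13 core genes; in each other list the highest and lowest. Further genes were named to account for all members. Alternatives were other pseudocounts (0.1 and 5), filters, scalings and variance models, a replicate block, each library left out and a threshold of 0.1. An adjustment for transcript length (loess, span 0.5) was added after seeing the data.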

Additional observations from a re-analysis of the deposited data

How the results depend on the processing

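With 98 genes called over the whole table, the alternatives gave 167 at a mean of at least 5 FPKM, 35 with quantile normalization, 8 with scaling by the median of ratios, 4 without a variance trend, 209 with robust variances and 253 at a threshold of 0.1. No filter on low values and the transcript length adjustment gave 0 limma calls (2268 and 1708 genes at an unadjusted p under 0.05), and leaving out any library gave 0 to 0, with 619 to 3195 at an unadjusted p. Of the 53 transcription genes, 1 was called (MED7) at a mean of at least 5 FPKM, with robust variances and at a threshold of 0.1, and 0 under the others, with 0 to 0 when a library was left out; there 2 to 33 had an unadjusted p under 0.05. Their median difference was 0.379 with quantile normalization and 0.368 with scaling by the median of ratios, and leaving out single libraries gave 0.416 to 0.913. The count without overlap fell from 43 (42 higher, 1 lower) to 27 (25 higher, 2 lower) with quantile normalization. Over all tested genes the share that was higher went from 51.5% to 32.7%, and the share that was lower from 13.0% to 19.8%.

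Several small differences reversed after both quantile normalization and scaling by the median of ratios. Among them were RpII18 (−0.017 and −0.217), RpII33 (−0.106 and −0.147) and Taf10 (−0.013 and −0.126). Taf5 (−0.064 and −0.049), TfIIA-L (−0.074 and −0.285) and MED19 (−0.057 and −0.124) did so too. RpII15 reversed with the latter alone (−0.085). After scaling by the median of ratios Taf4 (−0.098), Taf6 (−0.068) and MED27 (−0.034) were negative as well. Leaving out single libraries gave −0.048 to 0.541 for RpII33 and −0.022 to 0.655 for Taf5, both negative without mCherry RNAi replicate 1. For these reversals the cause was not tested.

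The replicate numbers are shared by both groups, but nothing in the labels says that they pair the libraries. Deviations of same-numbered libraries correlated at r = 0.25 across genes. With a replicate block 194 genes and 0 of the 53 were called by limma (21 of the 53 at an unadjusted p under 0.05), and the median difference was 0.74. At 4 to 7 and 6 to 15 fragments per library, the counting intervals of RpI12 and MED27 include a ratio of 1. Those of RpII18, RpII33, Taf5, Taf10, Taf10b and MED4 include it too. Of the 32 single-transcript genes compared, 24 had intervals that exclude 1.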
